A study of Mus musculus with 8 samples.

Results

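Tnfsf15 and other ligands and receptors of the tumour necrosis factor (TNF) superfamily were described in cultured primary tubular epithelial cells of mouse kidney. The genes were chosen by symbol, as 10 named members of the family, and 9 of the 10 stand among the 14145 genes of the deposited table; no row carries the symbol Tnfsf10, so that ligand was not analysed here. Tnfsf15 heads the list because it was among the 11 genes called between the genotypes in these same libraries (limma, a linear model fitted over all genes, adjusted p = 0.0411), so its difference is a description and supports nothing. The remaining members were also selected from a family whose values were known, and their differences and counts of calls are descriptions in the same way.

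The libraries come from 4 KO samples, cells of mice that lack Aldh2 in tubular epithelium (Aldh2TEC-KO), and 4 WT samples, cells of control mice (Aldh2Ctrl). Aldh2 is the mitochondrial dehydrogenase that clears acetaldehyde and aldehydes of lipid peroxidation. All cells were grown in serum-containing medium and received no treatment, and the title of the series sets the comparison in the context of tubular metabolism and susceptibility to renal injury. Neither strain and age nor the driver of the deletion is stated in the sources used here, nor how many animals lie behind the libraries. The genotype field names a different ALDH gene for each KO library, so groups follow the sample titles. Aldh2 itself read 0.879, 1.64, 1.20 and 1.26 FPKM in KO 1 to 4, against 31.1, 23.7, 25.5 and 25.2 FPKM in WT 1 to 4. FPKM are reads or fragments scaled by gene length and library depth, so levels can be compared between genes.

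Libraries differed in ways that touch these genes. By Xist and Y-linked transcripts KO 1 and KO 2 are female and KO 3, KO 4 and all WT libraries male (Xist at 14.5 and 38.3 FPKM in KO 1 and KO 2 and at most 0.01 FPKM in the other libraries), so differences among the KO libraries and differences of sex cannot be told apart. Markers of tubular epithelium were present in every library, with summed levels over 8 measured of 9 markers of 815 to 6172 FPKM in KO libraries and 1376 to 3001 FPKM in WT libraries, led by Krt8, Krt18 and Cdh16. Of 8 lymphocyte markers only Trac was in the table, at 0.523 to 1.14 FPKM in KO libraries and 0.308 to 2.05 FPKM in WT libraries. No 2 libraries of a group were as close as repeated sequencing of 1 library would be (chi-square per gene of 12 to 338).

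Ligands of the TNF superfamily are trimeric proteins, mostly anchored in the membrane and released by proteases, that cluster their receptors on the target cell. Receptors with a death domain can assemble a caspase-activating complex. Signalling receptors with or without a death domain can act through TNF-receptor-associated factors (TRAFs) and lead to NF-kB and stress kinases. In injured kidney, TNF and its relatives are known as mediators between infiltrating leukocytes and the tubular epithelium. Tnfsf15, also called TL1A, is known from endothelial and myeloid cells and is the ligand of the death-domain receptor DR3, encoded by Tnfrsf25, which was not among the genes analysed here.

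The sequences before the transcription start are shown for Tnfsf15, the member with the largest difference, for Tnf, the founding ligand, and for Tnfrsf12a, the most abundant member. They are the 250 bases 5′ of the RefSeq start on the gene's strand (GRCm38.p6), at chr4:63745060-63745309 (minus strand) for Tnfsf15, chr17:35202008-35202257 (minus strand) for Tnf and chr17:23677450-23677699 (minus strand) for Tnfrsf12a. The gene coordinates given below are those of GENCODE M21, whose starts can differ from RefSeq. By them the Tnfsf15 and Tnfrsf12a windows lie partly, and the Tnfrsf1a window wholly, inside the gene. Capitals mark matches, on either strand, to the NF-kB consensus, the AP-1 element TGANTCA, the TATA element TATAAA or the ETS-type element CCGGAA.
Tnfsf15: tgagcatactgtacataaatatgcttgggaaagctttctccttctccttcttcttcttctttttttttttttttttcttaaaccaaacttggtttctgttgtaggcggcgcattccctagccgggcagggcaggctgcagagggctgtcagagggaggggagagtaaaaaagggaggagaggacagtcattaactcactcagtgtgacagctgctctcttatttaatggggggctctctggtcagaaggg
Tnf: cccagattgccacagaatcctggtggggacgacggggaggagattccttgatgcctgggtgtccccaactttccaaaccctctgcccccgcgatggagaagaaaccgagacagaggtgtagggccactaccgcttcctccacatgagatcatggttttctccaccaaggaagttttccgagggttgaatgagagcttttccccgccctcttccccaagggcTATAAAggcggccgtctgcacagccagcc
Tnfrsf12a: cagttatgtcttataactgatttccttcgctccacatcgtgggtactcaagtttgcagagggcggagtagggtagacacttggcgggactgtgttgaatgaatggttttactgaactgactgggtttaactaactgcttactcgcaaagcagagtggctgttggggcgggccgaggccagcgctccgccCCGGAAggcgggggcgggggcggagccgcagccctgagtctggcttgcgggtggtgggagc

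The Tnfsf15 window held none of the 4 motifs, a GC content of 46.8% and 3 CpG dinucleotides, against medians of 52.4% and 6 over 32851 such windows. The Tnfrsf12a window held 1 CCGGAA match, 58.8% GC and 15 CpG. Windows were found for 7 of the 9 members, not for Tnfrsf10b and Tnfrsf11b. CCGGAA occurred in Tnfrsf12a, Tnfrsf1a and Tnfrsf1b and in 12% of all windows. TATAAA occurred in Tnf (12.4% of all windows), TGANTCA in Fas (6.75%), and the NF-kB consensus in 0 of the 7 (7.25%). No window of a member held more than 1 match, so none overlapped. A match is a description of letters, and the absence of one says only that the letters are not in this window.

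Tnfsf15 transcript was low in every KO library. Tnfsf15 (ENSMUSG00000050395, GRCm38 chromosome 4, 63727084 to 63745113, minus strand, protein coding, 4 exonic blocks) read 0.0974, 0.551, 0.207 and 0.0823 FPKM in KO 1 to 4, against 2.49, 2.73, 1.65 and 3.24 FPKM in WT 1 to 4. The groups did not overlap, and the highest KO library, KO 2, stood well below the lowest WT library, WT 3. KO cells averaged 0.234 ± 0.218 FPKM and WT cells 2.53 ± 0.664 FPKM (SD, n = 4 each), so the KO mean was 9.27% of the WT mean. On the log2(FPKM + 1) scale, which compresses differences between low FPKM, the difference was -1.51 (SE 0.20).

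These levels rest on few reads. Reads recovered from the FPKM numbered 6, 33, 13 and 5 for Tnfsf15 in KO 1 to 4, against 144, 156, 98 and 188 in WT 1 to 4, at depths of 17890000 to 18760000 per KO library and 17050000 to 17760000 per WT library. All 4 KO counts lay above the floor of 3 reads. The authors' deposited table gives Tnfsf15 a log2 fold change of -3.39 and an adjusted p of 3.54e-07, the fourth lowest p of the table. Around the threshold of the call, Gm38357 at an adjusted p of 0.0411, Pepd and Hist1h2bj at 0.0416 lay inside and B4galt6 at 0.0545 and Gabrp at 0.0566 outside. The call was lost in most fits with 1 library left out, and calls over all genes ranged there from 1 to 1139. In limma the adjusted p of Tnfsf15 was 0.0213 without KO 2 and between 0.0629 and 0.248 without any other single library. The log2 differences were -1.64 to -1.42 throughout.

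In bulk RNA, fewer cells of a type and less RNA per cell cannot be told apart. Tnfsf15 is known to be expressed in endothelium and in myeloid cells. For 2 of the endothelial markers measured, Eng and Esam, all KO libraries lay below WT, as for 6.86% of all genes. Of the endothelial markers 0 were called, against 0.0778% of all genes. Pdgfrb and Col3a1, 2 of 5 measured markers of fibroblasts and pericytes, also had all KO libraries below WT. For Col1a1, Col1a2 and Acta2 of that list the groups overlapped. Acta2, the most abundant, went the other way, with means of 1044 FPKM in KO cells and 440 FPKM in WT cells. Of the 14 macrophage markers 13 were higher and 1 lower in KO cells (median log2 difference 1.52). Of 9 endothelial markers 5 were measured, with Pecam1, Cdh5, Kdr and Tek not among the genes analysed here, and their summed level was 2.34 to 4.13 FPKM in KO libraries, against 6.08 to 8.68 FPKM in WT libraries, with 4 of the 5 lower in KO cells. Eng, an endothelial co-receptor of the transforming growth factor family, led this list at 1.68 ± 0.713 FPKM in KO cells and 4.54 ± 0.774 FPKM in WT cells (SD, n = 4 each), with a limma adjusted p of 0.0996. Esam, an endothelial adhesion molecule, stood at 0.192 ± 0.158 FPKM in KO cells and 0.883 ± 0.201 FPKM in WT cells. The groups overlapped for the other 3, with Flt1 at 0.146 to 0.542 FPKM in KO libraries and 0.292 to 1.20 FPKM in WT libraries, Emcn at 0.0591 to 0.673 FPKM in KO libraries and 0.384 to 0.875 FPKM in WT libraries, and Egfl7 at 0.297 to 1.09 FPKM in KO libraries and 0.323 to 0.786 FPKM in WT libraries. The part of endothelial, myeloid or other cells in the Tnfsf15 result was not tested.

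The genes around Tnfsf15 did not share its low level as a block. Within 500000 bp on either side 8 other genes were measured. Limma called 0 of them (adjusted p of 0.111 to 0.846), against 0.0778% of all genes, so nothing is read from that count. Col27a1, a fibrillar collagen, had all KO libraries below WT, as for 6.86% of all genes, at 0.545 to 0.678 FPKM in KO libraries and 1.34 to 2.00 FPKM in WT libraries. For every other neighbour measured the groups overlapped. The nearest measured gene towards lower coordinates, Tmem268, lay at 4.64 ± 1.27 FPKM in KO cells and 4.25 ± 0.524 FPKM in WT cells. Tnc, the matrix protein tenascin C and the nearest on the other side, lay at 174 to 300 FPKM in KO libraries and 221 to 409 FPKM in WT libraries (n = 4 each).

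**Figure D1:**
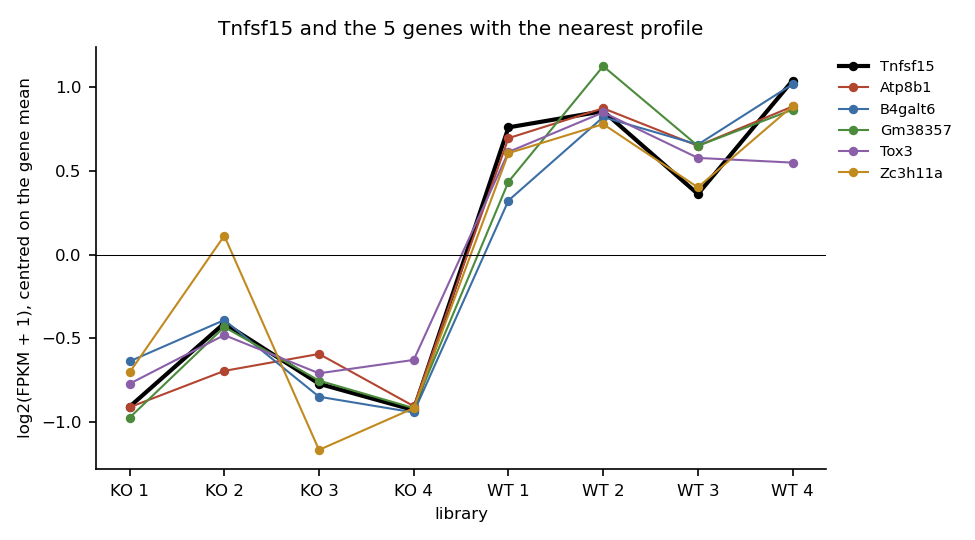
Level of Tnfsf15 and of the 5 genes with the nearest profile in each of the 8 libraries, on the log2(FPKM + 1) scale after centring each gene on its own mean (y axis), with libraries along the x axis; lines join the libraries of 1 gene. All 6 genes sit below their mean in KO 1, 3 and 4 and above it in every WT library, and Zc3h11a alone is above its mean in KO 2.

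Profiles most like that of Tnfsf15 were sought among 11887 genes whose mean log2(FPKM + 1) reached 1, by the mean absolute difference of the centred values over the 8 libraries. The nearest was Atp8b1, a phospholipid flippase, at a distance of 0.127, against a median distance of 0.748 over those genes. B4galt6, a lactosylceramide synthase, followed at 0.147, Gm38357, an unclassified transcript, at 0.147, Tox3, a high-mobility-group box protein, at 0.179 and Zc3h11a, a zinc-finger protein of mRNA export, at 0.195. Within the KO libraries, KO 2 was the highest for Tnfsf15, B4galt6, Gm38357, Tox3 and Zc3h11a, and Atp8b1 was highest in KO 3. B4galt6 read 6.94, 8.42, 5.86 and 5.43 FPKM in KO 1 to 4, against 14.5, 20.8, 18.5 and 24.0 FPKM in WT 1 to 4. The likeness is a ranking that includes the difference between genotypes.

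Tnf, the inflammatory cytokine that gives the family its name, was scarce, and its groups overlapped. Tnf (chromosome 17, 35199381 to 35202007, minus strand) read 0.133, 1.57, 0.0325 and 0.773 FPKM in KO 1 to 4, against 0.848, 0.358, 0.618 and 0.598 FPKM in WT 1 to 4. The KO libraries spanned both extremes, with KO 2 the highest and KO 3 the lowest of the 8. The KO 3 value is 1 read, under the floor of 3 reads, and the KO 2 value 46 reads. Means were 0.627 ± 0.709 FPKM in KO cells and 0.606 ± 0.200 FPKM in WT cells (SD, n = 4 each), a log2 difference of -0.07 (SE 0.28). The sign of this difference turned without KO 1 (0.07), without KO 3 (0.11) and with KO 1 and KO 2 alone against the WT libraries (0.10).

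Macrophages are a known source of Tnf, and their markers differed between libraries. All 14 macrophage markers were measured, 13 with a higher and 1 with a lower KO mean on the log2 scale. Of these 0 were called, against 0.0778% of all genes. Their summed level was 614, 1812, 239 and 1152 FPKM in KO 1 to 4, against 1096, 104, 118 and 121 FPKM in WT 1 to 4. Lyz2, lysozyme, was the most abundant of them, at 398, 990, 82.6 and 554 FPKM in KO 1 to 4 and at 674, 16.9, 26.1 and 9.38 FPKM in WT 1 to 4. The libraries highest for Tnf, KO 2 and WT 1, were among the 3 highest for the macrophage sum, with KO 4 next for Tnf. KO 1 had a larger sum than WT 3 and a lower Tnf level. The part of these cells in the Tnf values was not tested.

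**Figure D2:**
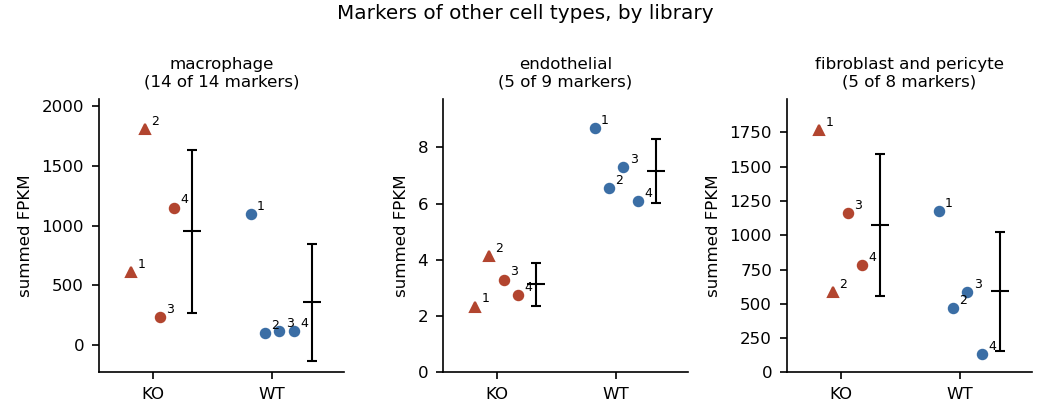
Summed FPKM of markers of macrophages, of endothelium and of fibroblasts and pericytes in each library (y axis), with KO left of WT; triangles are female KO libraries, circles male libraries, numbers give the library, and bars are mean ± SD (n = 4). Endothelial sums, of which Eng is the largest item in every library, do not overlap between the groups, while WT 1 lies among the KO libraries for the macrophage sum.

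Of the 7 receptors measured, 4 had a higher and 3 a lower KO mean on the log2 scale, the groups overlapped for all 7, and 0 were called by limma. Over the 9 members together 1 was called, against 0.0778% of all 14145 genes, and this gene, Tnfsf15, was lower in KO cells, as were 0.0566% of all genes by the same threshold. Groups that did not overlap were found for 1 member with KO below WT, against 6.86% of all genes, and for 0 with KO above WT, against 4.76%, or 11.6% in either direction. Tnfsf15 accounts for these counts and was chosen on this contrast, so nothing is read from them. The median log2 difference of the 9 members was -0.07, against -0.06 over all genes.

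**Figure D3:**
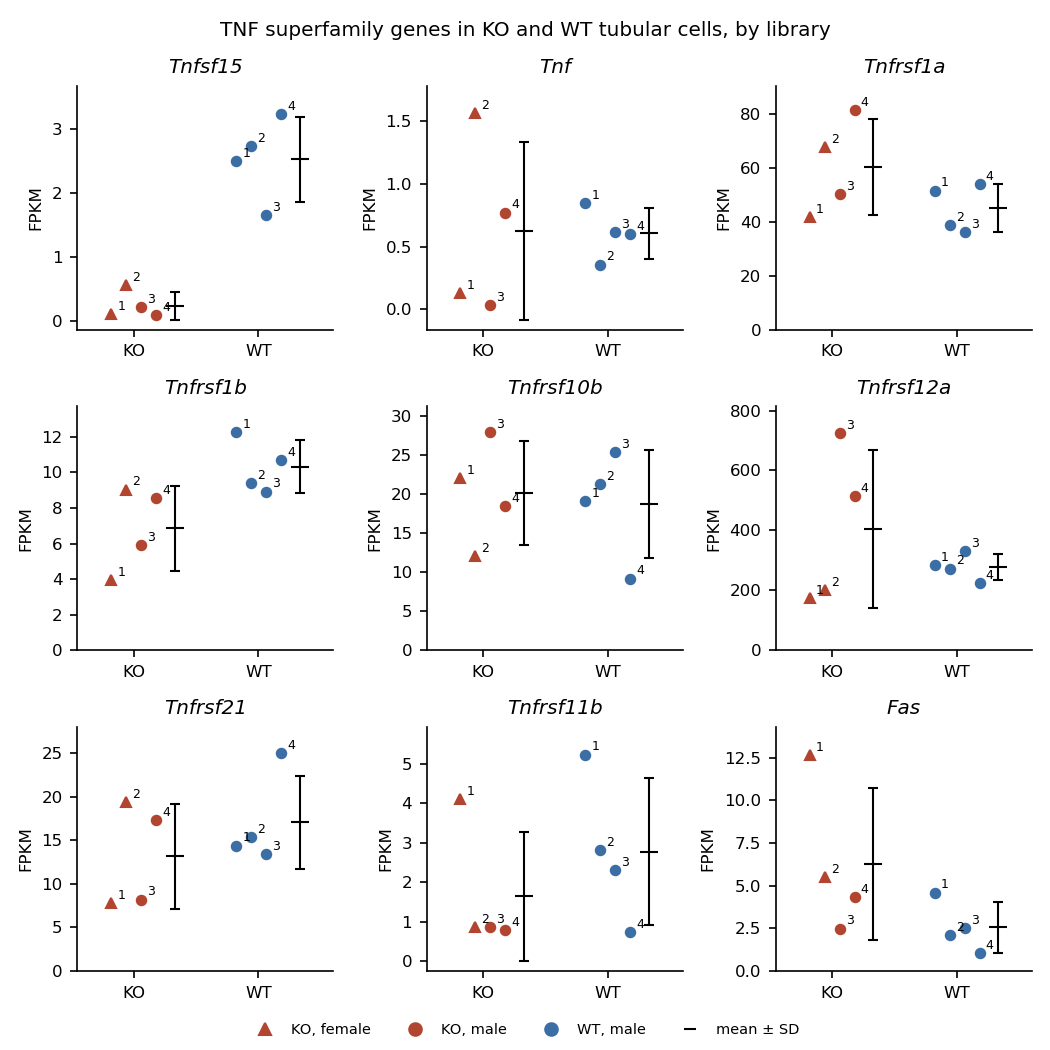
FPKM of the 9 measured members in each library (y axis, linear, a separate scale for each gene), with KO left of WT; triangles are female KO libraries, circles male libraries, numbers give the library, and bars are mean ± SD (n = 4). The groups are separate for Tnfsf15 and overlap for the other 8 genes, and Tnfrsf12a divides the KO libraries into 175 to 201 FPKM and 515 to 724 FPKM.

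Among the death-domain receptors, Tnfrsf1a, the principal receptor of soluble TNF (chromosome 6, 125349362 to 125362484, plus strand), read 42.0, 67.8, 50.4 and 81.6 FPKM in KO 1 to 4, against 51.7, 39.1, 36.2 and 54.2 FPKM in WT 1 to 4. KO 2 and KO 4 exceeded every WT library, and KO 1 and KO 3 lay within the WT range. The means were 60.4 ± 17.7 FPKM in KO cells and 45.3 ± 8.98 FPKM in WT cells (SD, n = 4 each), a log2 difference of 0.38 (SE 0.24), which was 0.23 without KO 4 and 0.09 without the trend on exon length and GC content.

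Fas, the receptor of Fas ligand and an inducer of apoptosis in tubular cells (chromosome 19, 34290666 to 34327772, plus strand), had the largest positive difference of the members when all libraries were used. Its level was 12.7, 5.49, 2.49 and 4.34 FPKM in KO 1 to 4, against 4.60, 2.08, 2.501 and 1.06 FPKM in WT 1 to 4. KO 1 and KO 2 exceeded every WT library, while KO 3 lay below WT 1 and WT 3. The means were 6.25 ± 4.45 FPKM in KO cells and 2.56 ± 1.49 FPKM in WT cells (SD, n = 4 each), 2.44-fold, at a log2 difference of 0.93 (SE 0.43). Without KO 1 the log2 difference was 0.57, and with the male libraries alone 0.37, in both cases below that of Tnfrsf12a. In the authors' deposited table Fas has a log2 fold change of 1.36. Fasl, its ligand, was not among the genes analysed here.

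Tnfrsf10b, the death receptor of TRAIL in mouse (chromosome 14, 69767472 to 69784411, plus strand), read 22.1, 12.1, 27.9 and 18.5 FPKM in KO 1 to 4, against 19.1, 21.3, 25.3 and 9.19 FPKM in WT 1 to 4. The groups covered nearly the same range, at a log2 difference of 0.13 (SE 0.33) whose sign turned without KO 3 (-0.04), without WT 4 (-0.16) and with KO 1 and KO 2 alone (-0.10). Tnfrsf21, the death receptor DR6 (chromosome 17, 43016555 to 43089189, plus strand), read 7.80, 19.4, 8.20 and 17.4 FPKM in KO 1 to 4, against 14.4, 15.4, 13.5 and 25.1 FPKM in WT 1 to 4. KO 1 and KO 3 lay below every WT library, KO 2 and KO 4 within their range, and the log2 difference was -0.41 (SE 0.32), or -0.22 without KO 1 or without WT 4, -0.24 without KO 3 and -0.62 without KO 2.

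Among receptors without a death domain, Tnfrsf12a, the receptor Fn14 of the cytokine TWEAK and a gene known to be raised in injured tubules (chromosome 17, 23675445 to 23677468, minus strand), divided the KO libraries. It read 175, 201, 724 and 515 FPKM in KO 1 to 4, against 286, 273, 332 and 226 FPKM in WT 1 to 4. KO 1 and KO 2 lay below every WT library, and KO 3 and KO 4 above every WT library. The means were 404 ± 263 FPKM in KO cells and 279 ± 43.8 FPKM in WT cells (SD, n = 4 each), with a log2 difference of 0.29 (SE 0.44). This split follows the sex of the libraries, since Xist and Y-linked transcripts mark KO 1 and KO 2 as female and all other libraries as male. With only the male libraries the log2 difference of Tnfrsf12a was 1.14 (SE 0.22), and with KO 1 and KO 2 alone against the WT libraries it was -0.56. Without KO 3 it was -0.07, and without KO 4 it was 0.09. The male comparison called 2 of the 9 members, Tnfrsf12a and Tnfsf15, against 44.4% of all genes. With a covariate for sex the same 2 were called, against 34.2% of all genes. Because all WT libraries are male, the covariate fit gives the same differences as the male comparison and is no separate estimate. After each library was freed of its trend on exon length and GC content, the Tnfrsf12a difference was -0.07. Sex, that trend and the identity of the libraries cannot be told apart here. Tnfsf12, which encodes TWEAK, stood at 5.98 ± 1.91 FPKM in KO cells and 4.26 ± 2.07 FPKM in WT cells.

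**Figure D4:**
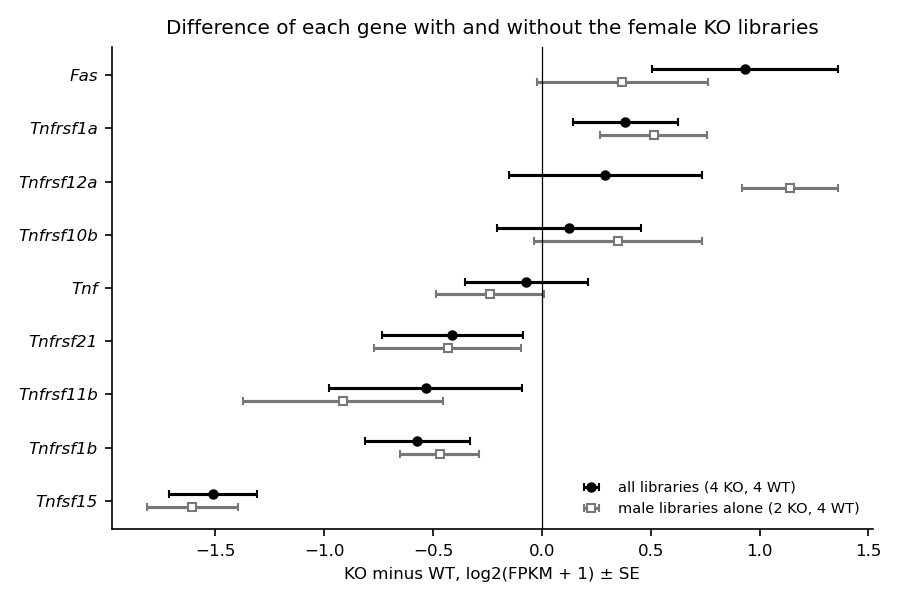
Difference between KO and WT on the log2(FPKM + 1) scale (x axis) with its standard error for each of the 9 members, from all libraries (filled circles) and from the male libraries alone (open squares). Tnfsf15 lies at -1.51 and -1.61 in the 2 fits, whereas Tnfrsf12a moves between 0.29 and 1.14.

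Tnfrsf1b, the receptor of membrane-bound TNF and in kidney a receptor of leukocytes, endothelium and injured tubules (chromosome 4, 145213463 to 145246870, minus strand), read 3.95, 9.03, 5.89 and 8.57 FPKM in KO 1 to 4, against 12.3, 9.40, 8.92 and 10.7 FPKM in WT 1 to 4. The groups overlapped by a single pair, KO 2 above WT 3. The means were 6.86 ± 2.38 FPKM in KO cells and 10.3 ± 1.497 FPKM in WT cells (SD, n = 4 each), a log2 difference of -0.57 (SE 0.24), and its sign held in every alternative run, between -0.71 (without KO 2) and -0.37 (without KO 1). The KO libraries with more macrophage marker transcript, KO 2 and KO 4, were also the higher KO libraries for Tnfrsf1b. KO 1 had the larger macrophage sum and the lower Tnfrsf1b level of the remaining KO pair. WT 1 had the largest macrophage sum of the WT libraries (1096 FPKM) and the highest Tnfrsf1b level of all libraries. WT 2 to WT 4 had 8.92 to 10.7 FPKM of Tnfrsf1b at the lowest sums. The part of macrophages in its level was not tested.

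Tnfrsf11b, the secreted decoy receptor osteoprotegerin, which binds the cytokine RANKL and TRAIL (chromosome 15, 54250619 to 54278484, minus strand), read 4.11, 0.853, 0.851 and 0.782 FPKM in KO 1 to 4, against 5.24, 2.81, 2.32 and 0.737 FPKM in WT 1 to 4. KO 1 stood apart from the other KO libraries, which lay close together, and WT 4 was the lowest of all 8. The log2 difference was -0.53 (SE 0.44), and it was -0.90 without KO 1, -0.86 without WT 4, -0.24 without WT 1 and -0.15 with KO 1 and KO 2 alone. Fibroblast and pericyte markers, another known source of osteoprotegerin, were summed over 5 measured of 8 markers at 587 to 1765 FPKM in KO libraries and 133 to 1174 FPKM in WT libraries. Of the 5, 1 was higher and 4 were lower in KO cells, and 0 were called, against 0.0778% of all genes. KO 1 and WT 1, the libraries highest for Tnfrsf11b, were also highest for that sum, and WT 4 was lowest for both, but for KO 1 the match rests on Acta2 alone. KO 1 was the lowest of the 8 libraries for Pdgfrb (0.654 FPKM), Col1a1 (13.9 FPKM) and Col3a1 (0.775 FPKM). Acta2 made up most of the sum, at 1746, 561, 1126 and 745 FPKM in KO 1 to 4 and 726, 417, 520 and 98.4 FPKM in WT 1 to 4. Col1a1 read 13.9 to 28.1 FPKM in KO libraries and 21.6 to 283 FPKM in WT libraries, and Col1a2 read 1.24 to 8.11 FPKM in KO libraries and 6.22 to 124 FPKM in WT libraries. Their part in Tnfrsf11b was not tested.

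The levels of the members spanned a wide range in every library. Tnfrsf12a made up 63.2% to 88.3% of the summed FPKM of the 9 members, and its mean over all libraries, 342 FPKM, exceeded 99.4% of the genes of the table. Tnfrsf1a followed at 52.9 FPKM, then Tnfrsf10b at 19.4 FPKM, Tnfrsf21 at 15.1 FPKM, Tnfrsf1b at 8.59 FPKM, Fas at 4.40 FPKM and Tnfrsf11b at 2.21 FPKM. Over all libraries together the ligands were lowest, Tnfsf15 at 1.38 FPKM and Tnf at 0.616 FPKM. In WT cells alone the Tnfsf15 mean of 2.53 FPKM lay beside those of Fas (2.56 FPKM) and Tnfrsf11b (2.78 FPKM), with overlapping ranges, and Tnfsf15 exceeded both in WT 4. Tnfrsf12a and Tnfrsf1a stood in this order in all 8 libraries, clear of their neighbours. Tnfrsf10b and Tnfrsf21 overlapped in both genotypes, as did Fas and Tnfrsf11b. Tnfsf15 ranged above Tnf in every WT library, at 1.65 to 3.24 FPKM against 0.358 to 0.848 FPKM, and the ranges of both ligands overlapped in the KO libraries.

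Of 87 other genes of the pathway, from ligands to TNF-inducible genes, 63 were measured. Limma called 0 of them at an adjusted p below 0.05, against 0.0778% of all genes. With so small a share over all genes, nothing is read from that count. At an unadjusted p below 0.05 there were 7 of the 63 (6 lower and 1 higher in KO cells), against 19.2% of all genes. Limma-voom on the recovered reads called 0 of the 63, and 7 over all genes. The median log2 difference of the 63 was -0.09, against -0.06 over all genes, and the groups did not overlap for 4 of them, against 11.6% of all genes.

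**Figure D5:**
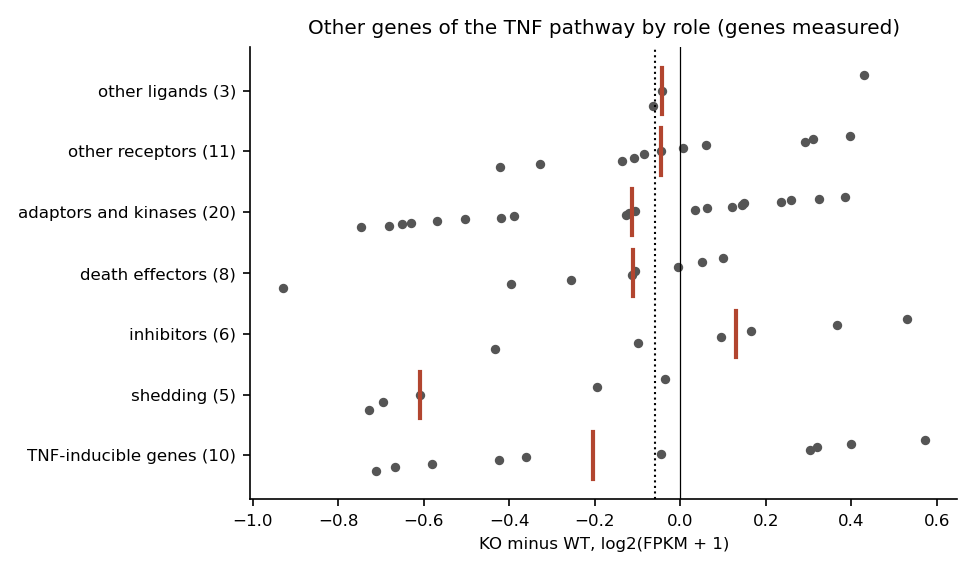
Difference between KO and WT on the log2(FPKM + 1) scale (x axis) for 63 other genes of the TNF pathway, 1 point per gene, by role (y axis, number of genes in brackets); red bars are medians of the role and the dotted line is the median of all genes at -0.06. The shedding genes have the lowest median, -0.61. No gene of any role passed the test, which 0.0778% of all genes passed.

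Few other ligands were measured. Of 15, 3 were in the table, with 1 higher in KO cells and 2 lower (median -0.04). Tnfsf9, the ligand of the costimulatory receptor 4-1BB, stood at 1.33 ± 0.319 FPKM in KO cells and 1.43 ± 0.496 FPKM in WT cells, and Eda, ectodysplasin, at 1.042 ± 0.919 FPKM in KO cells and 1.02 ± 0.298 FPKM in WT cells (SD, n = 4 each). Of 21 other receptors 11 were measured, 5 higher and 6 lower (median -0.04). Tnfrsf9, which encodes 4-1BB, read 2.45, 1.13, 2.51 and 2.23 FPKM in KO 1 to 4, against 1.21, 1.31, 1.45 and 1.21 FPKM in WT 1 to 4, so that 3 KO libraries exceeded every WT library and KO 2 lay below them all. Tnfrsf22, a mouse decoy receptor of TRAIL with close paralogs whose reads may be shared, stood at 4.24 ± 0.873 FPKM in KO cells and 5.56 ± 0.968 FPKM in WT cells. Tnfrsf11a, the receptor of RANKL, stood at 0.662 ± 0.707 FPKM in KO cells and 0.271 ± 0.122 FPKM in WT cells, with its highest level in KO 2 (1.71 FPKM).

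Adaptors and kinases counted 20 measured of 21, 9 higher and 11 lower (median -0.11), with 5 at an unadjusted p below 0.05, all lower, beside 19.2% of all genes in either direction. Traf6, a ubiquitin ligase that relays receptor signals to NF-kB, read 4.75, 6.10, 3.14 and 3.64 FPKM in KO 1 to 4, against 6.52, 7.94, 6.99 and 7.89 FPKM in WT 1 to 4. Birc3, the inhibitor of apoptosis cIAP2, read 4.10, 4.58, 2.66 and 3.38 FPKM in KO 1 to 4, against 5.50, 6.08, 5.64 and 6.23 FPKM in WT 1 to 4. For both genes the groups did not overlap (log2 differences of -0.65 and -0.57), and the limma adjusted p was 0.175 for Traf6 and 0.177 for Birc3. Without the trend on exon length and GC content the differences were -0.25 for Traf6 and -0.38 for Birc3. Map3k5, the stress kinase ASK1, stood at 2.72 ± 1.26 FPKM in KO cells and 4.58 ± 1.03 FPKM in WT cells (SD, n = 4 each).

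Death effectors were all measured, 2 of 8 higher and 6 lower (median -0.11). Xiap, a caspase inhibitor, read 7.05, 11.1, 1.56 and 4.12 FPKM in KO 1 to 4, against 9.82, 11.03, 8.15 and 13.2 FPKM in WT 1 to 4, with KO 3 and KO 4 the lowest. Cflar, the caspase-8 decoy FLIP, stood at 12.8, 9.13, 4.28 and 4.23 FPKM in KO 1 to 4, against 8.48 to 9.80 FPKM in WT libraries. For Cflar KO 1 was above the WT range and KO 3 and KO 4 below it. Without the trend on exon length and GC content the log2 difference of Xiap was -0.33 in place of -0.93, and that of Cflar turned to 0.22, in place of -0.40.

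Inhibitors of the pathway were all 6 measured, 4 higher and 2 lower (median 0.13). Otulin, the deubiquitinase that trims linear ubiquitin chains at the TNF receptor complex, read 26.4, 19.1, 18.5 and 20.9 FPKM in KO 1 to 4, against 16.6, 13.4, 15.0 and 12.3 FPKM in WT 1 to 4, without overlap (log2 difference 0.53, SE 0.17, limma adjusted p = 0.181); without the trend on exon length and GC content the difference was 0.16. Tnip1, an A20-binding inhibitor of NF-kB, stood at 27.2 ± 4.57 FPKM in KO cells and 20.8 ± 2.86 FPKM in WT cells, and Cyld, another deubiquitinase, at 6.38 ± 3.16 FPKM in KO cells and 8.25 ± 0.373 FPKM in WT cells (SD, n = 4 each). The log2 difference of Tnip1 was 0.37, or 0.18 without that trend, and that of Cyld was -0.43 and turned to 0.20.

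Genes of ligand and receptor shedding were 0 higher and 5 lower of 5 (median -0.61), with 0 called, against 0.0778% of all genes. Without the trend on exon length and GC content the median was -0.23. With the male libraries alone 2 of the 5, Rhbdf1 (0.43) and Rhbdf2 (0.14), which encode partners of Adam17, were higher in KO cells. Adam17, the sheddase of TNF and its receptors, read 8.42, 12.05, 3.41 and 5.19 FPKM in KO 1 to 4, against 11.03, 12.1, 11.6 and 10.6 FPKM in WT 1 to 4. Adam10, a related sheddase, read 34.5, 44.4, 10.4 and 18.7 FPKM in KO 1 to 4, against 41.9, 40.7, 32.2 and 45.1 FPKM in WT 1 to 4. Timp3, the inhibitor of Adam17, read 30.2, 33.1, 13.4 and 15.7 FPKM in KO 1 to 4, against 30.9, 29.5, 26.0 and 51.9 FPKM in WT 1 to 4. For these 3 genes KO 3 and KO 4 lay below every WT library, and KO 2 lay within the WT range. Without the trend on exon length and GC content the log2 difference was -0.31 for Adam17, in place of -0.70, -0.44 for Adam10, in place of -0.73, and -0.23 for Timp3, in place of -0.61.

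TNF-inducible genes had no common direction, 4 of 10 measured being higher and 6 lower (median -0.20). Icam1, a leukocyte adhesion molecule, stood at 3.95 ± 1.29 FPKM in KO cells and 7.66 ± 4.43 FPKM in WT cells, and the chemokine Cxcl2 at 0.340 ± 0.275 FPKM in KO cells and 1.09 ± 0.887 FPKM in WT cells (SD, n = 4 each), with WT 4 the highest library for both. Sod2, mitochondrial superoxide dismutase, read 17.5, 18.02, 16.8 and 16.4 FPKM in KO 1 to 4, against 13.4, 12.4, 13.2 and 16.3 FPKM in WT 1 to 4, without overlap (log2 difference 0.30, limma adjusted p = 0.293); without the trend on exon length and GC content the difference was 0.87.

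With the male libraries alone 25 of the 63 pathway genes were called, 8 higher and 17 lower, beside 44.4% of all genes. The 8 higher genes had a median exon length of 3041 bp and the 17 lower genes of 6639 bp; over all genes called in that comparison the medians were 2790 bp for those higher and 6096 bp for those lower. Among the lower were Adam17 (-1.24), Adam10 (-1.44), Xiap (-1.65), Traf6 (-0.92), Birc3 (-0.78) and Cflar (-0.98), as log2 differences. The median log2 difference of the adaptors and kinases turned to 0.03 in this comparison, and that of the shedding genes was -1.14. The part of gene length in these calls was not tested.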

How the data were processed

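RNA was sequenced from 4 KO and 4 WT samples, grouped by their titles. Per the submitters' processing notes, FastQC, STAR 2.4.1d, DESeq2 and GRCm38 were used; no counter, annotation or row filter is named in those notes. The authors deposited 1 value per gene and library, named raw counts but carrying decimals and treated as FPKM, because the values times exon-union length (GENCODE M21, 14134 of 14145 genes) fall on whole reads: of values of 1 to 200 reads, 94.9% to 95.4% came within 0.05 of being whole, but with a wrong step 9.2% to 11.3% did. Whether reads or pairs were counted is unknown, and floors of 3 reads cover counting error only. Per gene, the deposited table further holds the log2 fold change, p-value and adjusted p-value of the authors, quoted only as theirs. No column of values lacked a sample (0 columns).

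The fit used limma 3.58.1 (R 4.3.3) on log2(FPKM + 1), variance trend on mean level, all 14145 genes, no term but genotype, and Benjamini-Hochberg adjusted p below 0.05 as the call; the fit was tested on simulated data. The labels do not say that libraries came from separate animals, so the p-values cover the spread among these 8 libraries only, and that spread may be technical. The members and gene lists were chosen with earlier results of these data known. Named were the 10 members, Aldh2, pathway genes past the threshold and 3 per role by lowest p, the 5 genes nearest to Tnfsf15 in profile and up to 3 abundant markers per cell type; 1 gene that this rule names is not reported here. Any other measured gene, apart from Xist, was chosen after its values were seen. Pepd, Hist1h2bj and Gabrp were named for lying near the threshold, and Tmem268, Tnc and Col27a1 as neighbours of Tnfsf15. Further such genes were the endothelial markers Flt1 and Emcn, the fibroblast and pericyte markers Pdgfrb and Col3a1, and the shedding genes Rhbdf1 and Rhbdf2. Alternatives were pseudocounts of 0.5 and 0.1, a filter on FPKM, a covariate for sex, a replicate block, scaling by median ratios, limma-voom on recovered reads, the male libraries alone, KO 1 and 2 alone against WT, each library left out, and removal of the trend on length and GC content (lowess, span 0.3). Python 3.11.15, pandas 2.3.3, numpy 2.4.6 and matplotlib 3.10.9 handled tables and plots.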

Additional observations from a re-analysis of the deposited data

Results flagged for a closer look

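Among 60 groups of 4 libraries examined for the 9 members and 21 pathway genes, 2 held a library far from the others, where about 1 in 20 groups would by chance. Tnfrsf11b was at 4.105 FPKM in KO 1, far above the other KO libraries, which lay between 0.782 and 0.853 FPKM. Tnfrsf9 was at 1.129 FPKM in KO 2, far below the other KO libraries, which lay between 2.23 and 2.51 FPKM.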

How the results depend on the processing

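Tnfsf15 had a negative log2 difference under all 18 alternatives, from -3.75 to -1.39, and stayed called under 6 of them. Among the 6, the sex covariate and the male libraries alone give the same difference (-1.61), because all WT libraries are male. Tnfsf15 was not called with a pseudocount of 0.1 (-3.14, adjusted p = 0.0704), limma-voom (-3.75, adjusted p = 0.0657), the length and GC trend removed (-1.39, adjusted p = 0.0749), KO 1 and 2 alone (-1.41, adjusted p = 0.0885) or the replicate block (-1.51, adjusted p = 0.108). Leaving out single libraries gave -1.64 to -1.42, and only the fit without KO 2 kept the call. The cause was not tested. Of same-numbered KO and WT libraries only those numbered 3 deviated together (correlations of 0.04, -0.21, 0.61 and -0.04 for numbers 1 to 4), so the numbers were not taken as pairs. The count of called genes, 11, became 3 with a pseudocount of 0.1, 7 with limma-voom, 2 without the trend on length and GC, 1 under the replicate block, 4838 with the sex covariate and 6275 with the male libraries alone; leaving out single libraries gave 1 to 1139. The count of called pathway genes, 0, became 17 with the sex covariate and 25 with the male libraries alone, and 0 to 1 with single libraries left out; without KO 2 it was 1. The median of all genes was -0.12 with the sex covariate or the male libraries alone and lay between -0.11 and 0.00 otherwise. Of the other members, Tnf, Tnfrsf10b and Tnfrsf12a each changed sign under 3 alternatives, and Fas, Tnfrsf1a, Tnfrsf1b, Tnfrsf21 and Tnfrsf11b under none; Tnf was removed by the filter on FPKM. Depth limits Tnf and Tnfsf15, the members with fewer than 10 reads in some libraries.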
